A study of Mus musculus with 12 samples.

Results

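The Kupffer cells of 8 mice were compared between frozen liver tissue (Liver) and the cell suspension obtained by isolating hepatocytes from the same livers (Cell Suspension), by single-nucleus RNA sequencing. Nuclei were taken as the authors' table annotates them, as Kupffer cells, and their unique molecular identifiers (UMIs, each marking 1 captured RNA molecule) were added per sample. The annotation covers 1338 of 53467 nuclei, all in 1 of the authors' clusters. Of these, 919 came from Liver and 342 from Cell Suspension, so that 1261 of the 35073 nuclei of both sample types were used. Another 77 nuclei were assigned by hashtag to cultured hepatocyte samples and were left out of the comparison. The 8 Liver samples held 48 to 213 Kupffer nuclei and the 8 Cell Suspension samples 16 to 70, and every sample passed the minimum of 10.

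All mice were untreated males of 10 to 12 weeks. Their strain is C57BL/6NTac in the methods and C57BL6J in the deposited labels. Each liver was perfused with a calcium-free buffer at 42 °C. The Liver sample, a piece of the median lobe, was removed at that point, so it had been perfused but not digested. The rest was digested with collagenase, passed through strainers of 100 and 70 µm, washed at 50 g, pelleted at 100 g and frozen. These slow spins enrich hepatocytes, and the Kupffer nuclei of Cell Suspension are those that came along. Nuclei were tagged with hashtag antibodies and mixed in 6 pools of 4 samples, of which 4 pools held both sample types. The Cell Suspension samples of mice 1 to 3 were in pools without Liver.

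Kupffer cells are the resident macrophages of the liver. They sit in the sinusoids, where they take up particles, aged red blood cells and bacterial products from the blood, and they carry the lectin Clec4f, the secreted scavenger protein Cd5l and the receptor for macrophage colony-stimulating factor, Csf1r. Macrophages answer mechanical stress, wounding and microbial products within minutes by transcribing early response genes such as Fos and Jun. Signaling through the transcription factor NF-kB then induces cytokines and chemokines, together with inhibitors such as Nfkbia and Tnfaip3 that end the response.

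The UMI sums of Kupffer nuclei were 74779 to 837797 in Liver and 21464 to 209705 in Cell Suspension. A pair of Cell Suspension samples stood apart. That of mouse 4 held 16 Kupffer nuclei and the highest share of hepatocyte RNA, 2.27%. That of mouse 6 held 20 nuclei and the lowest sum, and its scaling factor (trimmed mean of M values, TMM) of 1.42 was the highest. None of the 1261 Kupffer barcodes occurred in more than 1 pool. The demultiplexing margin is a fraction the authors give for how clearly a nucleus belongs to its hashtag. It was lower in Cell Suspension (0.816 ± 0.0862 (SD, n = 8) against 0.903 ± 0.0708, two-sided exact permutation test, p = 0.0465), and in all 8 mice (exact paired test, p = 0.0078125). The assigned tag held 33.9% ± 11.7 of a Kupffer nucleus's hashtag UMIs in Cell Suspension and 35.2% ± 14.1 in Liver (SD of the samples' medians, n = 8). The sample medians were 17.2% to 52.6% and 21.8% to 62.5%. How many nuclei were assigned to a wrong sample was not tested. In nuclei with a margin at or above the median alone, 76 genes were higher and 38 lower in Cell Suspension.

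Fewer Kupffer nuclei were seen in Cell Suspension, but the difference was within the spread between mice. They were 2.75% ± 1.70 of the nuclei there and 5.08% ± 2.95 in Liver (SD, n = 8), a difference of -2.33 points that gave p = 0.0698 in a two-sided exact permutation test, or 0.206 adjusted over 3 measures. The share was lower in Cell Suspension in 6 of 8 mice. It ranged from 0.582% to 5.11% in Cell Suspension and from 1.64% to 10.6% in Liver, so the groups overlapped. Among nuclei that were not hepatocytes, the difference had the opposite sign, at 21.2% ± 7.95 and 19.1% ± 5.02 (exact permutation test, p = 0.534). Without mouse 7 the difference was -2.83 points (exact permutation test, p = 0.0484).

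Kupffer nuclei held a median of 1855 ± 637 UMIs in Cell Suspension and 2471 ± 898 in Liver (SD of the samples' medians, n = 8), a difference of -616 that did not pass the exact permutation test (p = 0.137, or 0.206 adjusted over the same measures). Unspliced RNA made up 66.2% ± 2.24 of the UMIs in Cell Suspension and 72.0% ± 1.84 in Liver. It was lower in Cell Suspension in all 8 mice and the groups did not overlap (exact permutation test, p = 0.0001554, the smallest this test can give). Mitochondrially encoded RNA was 0.717% ± 0.438 and 0.409% ± 0.0614 (exact permutation test, p = 0.0664).

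The genes that mark Kupffer cells did not differ detectably within the annotated nuclei. The paper annotated cell types from marker genes, so nuclei that had lost these genes could fall outside the annotation. The values below therefore cannot show whether the markers were kept on isolation. Clec4f was at 900 to 2153 CPM (counts scaled to a common total, here with TMM) in Cell Suspension, with a median of 1498, and at 1161 to 2237 in Liver, with a median of 1684. The groups overlapped, and the log2 fold change of Cell Suspension over Liver was -0.15 ± 0.19 (SE, edgeR's quasi-likelihood test, Benjamini-Hochberg adjusted p = 0.807). Cd5l was at a mean of 1201 CPM in Cell Suspension and 1133 in Liver, and Csf1r at 575 and 596. Their log2 fold changes were 0.10 ± 0.23 and -0.04 ± 0.20, and the signs of all 3 depend on the processing. In hepatocyte nuclei Clec4f was at 3.19 CPM in Cell Suspension and 2.85 in Liver. At least 1 of the 3 genes had a UMI in 89.2% of the Kupffer nuclei of Liver and in 87.4% of those of Cell Suspension.

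All 17 genes of the Kupffer marker list were tested and none passed in either direction, and 2 had an unadjusted p under 0.05, both higher in Cell Suspension. Over all 13819 genes tested 1.3% were called either way, and at an unadjusted p under 0.05, 574 were higher and 1101 lower. Since the nuclei were chosen by an annotation from marker genes, the count of marker calls cannot show whether identity was kept. DESeq2 called none of the markers either. The median log2 fold change of the list was -0.01, and over all genes tested it was -0.17. The complement genes C1qa, C1qb and C1qc, which encode the chains of C1q, a part of the first component of the classical pathway, had log2 fold changes of 0.75, 0.30 and 0.44. Timd4, a receptor for phosphatidylserine on dying cells, had -0.33, and Vsig4, a complement receptor, -0.04. The summed level of the list was 5218 to 14249 CPM in Cell Suspension and 6526 to 11011 in Liver, without TMM scaling.

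Of 13819 genes with at least 10 counts over the 16 samples, 149 (1.08%) were called higher and 31 (0.224%) lower in Cell Suspension by edgeR's quasi-likelihood test, with adjusted p-values under 0.05. Together they were 1.3% of the genes tested. The samples of the groups did not overlap for 16 higher and 13 lower genes, 0.116% and 0.0941% of those tested, and 16 and 3 of these were also called. With the mouse as a block, 139 genes (1.01%) were higher and 54 (0.391%) lower, 1.4% together. The split moved between scalings. The median of all genes was at -0.17 on the log2 scale with TMM and at -0.01 with the size factors of relative log expression (RLE). With RLE 222 genes were higher and 12 lower, and with DESeq2 182 and 10. Without the Cell Suspension sample of mouse 1 the count fell to 85 higher and 18 lower, without the Liver sample of mouse 3 to 90 and 20, and without the Cell Suspension samples of mouse 4 and of mouse 6 it was 171 and 39, and 156 and 24.

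Of 47 early response genes 44 were tested, 25 were higher in Cell Suspension and none was lower, with a median log2 fold change of 1.96 and a range from -0.42 to 5.18. Over all genes tested 1.08% were higher and 0.224% lower. With the pool as a covariate 16 of the list were called, and the count over all genes moved as well, as given below. Their summed level was 2530 to 7148 CPM in Cell Suspension and 616 to 945 CPM in Liver, without TMM scaling, so the groups did not overlap. Fos, a subunit of the transcription factor AP-1, was at 133 to 258 CPM in Cell Suspension (median 180) and at 0 to 29.3 CPM in Liver (median 10.1). Every Cell Suspension sample lay above every Liver sample, and the log2 fold change was 4.08 ± 0.31 (SE, edgeR's quasi-likelihood test, adjusted p = 4.17e-13).

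Jun, the partner of Fos in AP-1, was at 233 to 862 CPM in Cell Suspension (median 357) and at 24.3 to 62.1 CPM in Liver (median 37.1), again without overlap. Its log2 fold change was 3.53 ± 0.27 (SE, edgeR's quasi-likelihood test, adjusted p = 4.17e-13). Fosb, Junb and Jund, other AP-1 subunits, rose by 5.18, 3.05 and 2.91 on the log2 scale. Dusp1, a phosphatase that switches off stress-activated kinases, was at 33.3 to 400 CPM in Cell Suspension (median 233) and at 12.4 to 43.9 CPM in Liver (median 31.3). The Cell Suspension sample of mouse 6 lay within the Liver range for Dusp1 and the other 7 lay above it, with a log2 fold change of 2.93 ± 0.27 (SE, edgeR's quasi-likelihood test, adjusted p = 7.08e-11).

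**Figure D1:**
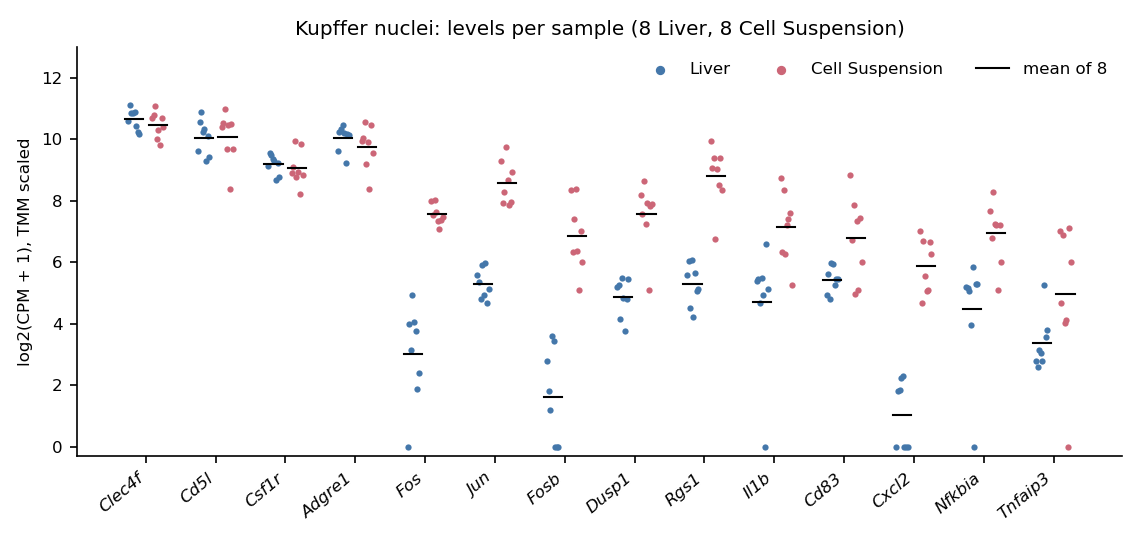
Levels of 14 genes in the Kupffer nuclei of each sample, as log2(CPM + 1) with TMM scaling. Blue points are the 8 Liver and red points the 8 Cell Suspension samples, and black lines are the means of 8. The markers Clec4f, Cd5l, Csf1r and Adgre1 overlap between groups, whereas for Fos, Jun, Fosb, Rgs1 and Cxcl2 every red point lies above every blue point. For Fosb and Cxcl2 the red point of mouse 6 is 1 UMI.

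Hepatocytes are by far the most frequent nuclei in both sample types, so hepatocyte transcripts were measured in the Kupffer nuclei as a gauge of background RNA. A list of 30 hepatocyte markers took 0.894% ± 0.620 of the UMIs of Kupffer nuclei in Cell Suspension and 0.783% ± 0.181 in Liver (SD, n = 8). The difference of 0.111 points did not pass the test (two-sided exact permutation test, p = 0.749), was higher in 4 of 8 mice and was -0.0777 without mouse 4. All 30 markers were tested for a change by edgeR's quasi-likelihood test with TMM, none was called, and their median log2 fold change was -0.07, with 6 unadjusted p under 0.05 above 0 and 2 below. Over all 13819 genes tested, 574 were higher and 1101 lower at that threshold. The sum of the markers ranged from 2632 to 22680 CPM in Cell Suspension and from 4903 to 10708 CPM in Liver, without TMM scaling, and no marker was at 0. With RLE 3 markers were called higher and the median was 0.13, and with the mouse as a block 1 was higher and 1 lower. The calls over all genes in these settings are given above. Set against the share these markers take in hepatocyte nuclei of the same samples, the Kupffer nuclei held as much hepatocyte RNA as would make up 23.6% ± 15.9 of their UMIs in Cell Suspension and 26.8% ± 3.89 in Liver.

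Hepatocyte nuclei of Cell Suspension held more early response RNA than those of Liver. Jun was at 1658 CPM in hepatocyte nuclei of Cell Suspension and at 51.5 CPM in those of Liver. If all hepatocyte transcripts in Kupffer nuclei came with the profile of the hepatocyte nuclei, the share above would bring 435 CPM of Jun into the Kupffer nuclei of Cell Suspension, where 432 CPM was measured without TMM scaling. For Egr1 it would bring 248 of 256 CPM, for Atf3 231 of 282 CPM, for Fos 69.5 of 193 CPM and for Dusp1 18.9 of 218 CPM. For 10 of the 25 early response genes called higher it amounted to at least 50% of the measured level, and for 8 to under 10%. The share itself ranged from 8.0% in the Cell Suspension sample of mouse 3 to 58.2% in that of mouse 4. For some genes, Bhlhe40 and Vegfa among them, the estimate exceeded the measured level, as given below, so it can be too high. In barcodes with few UMIs, Jun was at 117 to 536 CPM depending on the pool, below its level in hepatocyte nuclei of Cell Suspension.

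After the hepatocyte profile of each sample had been subtracted, 1.41% of genes tested were higher and 0.271% lower, 1.68% together, and 16 early response genes were still called and Egr1 and Atf3 were not (edgeR's quasi-likelihood test, adjusted p = 0.481 and 0.139). Fos kept a log2 fold change of 3.38 and Dusp1 of 3.31, and Jun fell from 3.53 to 2.02 (edgeR's quasi-likelihood test, adjusted p = 0.0264). The source of these transcripts was not tested, and a background profile taken from barcodes with few UMIs of the same pool gave other values. It left 20 calls, with Jun at 7.80, Egr1 at 7.57, Fos at 6.04 and Atf3 at 5.13 on the log2 scale (edgeR's quasi-likelihood test, adjusted p = 1.45e-11, 5.49e-07, 1.56e-10 and 3.40e-05), where 0.941% of genes tested were higher and 0.131% lower, 1.07% together. In both subtractions a count that would turn negative was dropped. This can enlarge a log2 fold change where few Liver counts are left, so these sizes are no estimates of the rise. The low-UMI profile was scaled to 19.1% to 41.6% of the Kupffer UMIs in Liver samples. In Cell Suspension samples it was scaled to 14.1% to 90.6%, the highest in that of mouse 4. Of all 149 genes higher in Cell Suspension, 84 were also called after the first subtraction, 74 after the second and 52 after both.

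**Figure D2:**
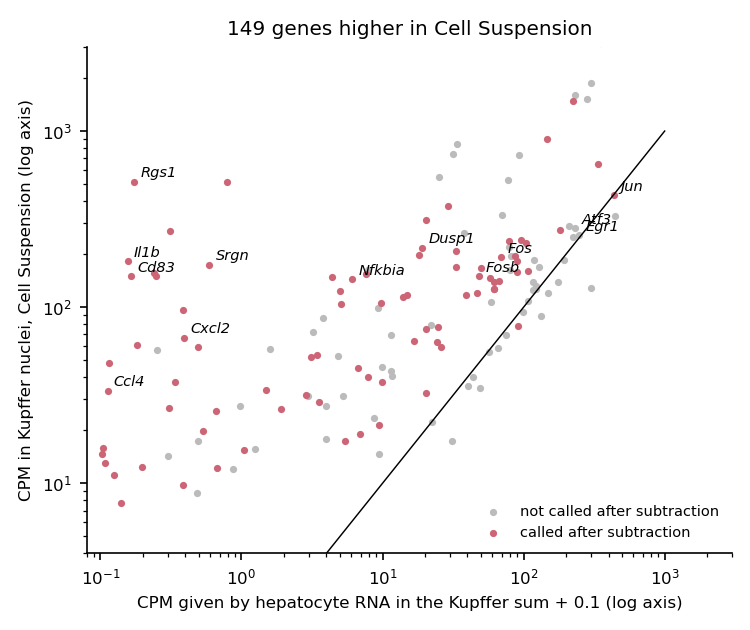
The 149 genes higher in the Kupffer nuclei of Cell Suspension, with the CPM that hepatocyte RNA would give on the horizontal axis (0.1 added) and the CPM measured on the vertical axis, both on log axes. The line marks equal values, red points were also called after subtraction of the hepatocyte profile, and Jun lies on the line whereas Rgs1, Il1b, Cd83, Srgn and Cxcl2 lie far above it.

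Of 61 genes of inflammation and NF-kB signaling 51 were tested, 13 were higher and none was lower, with a median log2 fold change of 0.68. Over all genes tested 1.08% were higher and 0.224% lower. The other 38 did not pass the test. For 12 of the 13, hepatocyte RNA would give under 10% of the measured level. The exception is Cxcl1, a chemokine that attracts neutrophils, for which it would give more than was measured. The summed level of the list was 2609 to 6404 CPM in Cell Suspension and 2220 to 3443 CPM in Liver, without TMM scaling, so the sums overlapped.

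Cxcl2, a chemokine for neutrophils, was at 24.6 to 127 CPM in Cell Suspension (median 60.3) and at 0 to 3.9 CPM in Liver (median 1.3), where 4 of 8 samples had no count. The groups did not overlap, and the log2 fold change was 4.80 ± 0.49 (SE, edgeR's quasi-likelihood test, adjusted p = 1.71e-09). It rests on 59 UMIs in Cell Suspension and 6 in Liver. The Cell Suspension sample of mouse 6 had 1 UMI, which gave 33.3 CPM. Hepatocyte RNA would bring 0.291 CPM of Cxcl2 into the Kupffer nuclei of Cell Suspension.

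Il1b, the precursor of the cytokine interleukin 1 beta, was at 37.6 to 428 CPM in Cell Suspension (median 156) and at 0 to 94.4 CPM in Liver (median 37.6). The groups overlapped, Cell Suspension was higher in all 8 mice, and the log2 fold change was 2.20 ± 0.34 (SE, edgeR's quasi-likelihood test, adjusted p = 3.66e-05). Cd83, a surface protein of activated antigen-presenting cells, was at 30.2 to 455 CPM and at 27.1 to 62.2 CPM. It was higher in 6 of 8 mice, and its log2 fold change of 2.00 was no longer called with the pool as a covariate. Il1a, Ccl3, Ccl4 and Tnf, a cytokine, a pair of chemokines and the cytokine tumor necrosis factor, rose by 1.75, 3.35, 4.23 and 3.44 on the log2 scale. Tnf and Ccl3 rest on 17 and 20 UMIs in Cell Suspension and had none in 4 of its 8 samples. Without the Cell Suspension sample of mouse 1, Il1a, Ccl3 and Tnf were no longer called (edgeR's quasi-likelihood test, adjusted p = 0.121, 0.380 and 0.236), and with the mouse as a block Ccl3 was not (2.71, adjusted p = 0.0898). None of these 4 genes was called with the pool as a covariate, where Ccl4 had a log2 fold change of 2.40 (edgeR's quasi-likelihood test, adjusted p = 0.341). Ccl3 and Ccl4 are related genes that lie near each other on chromosome 11. Whether reads were shared between them was not tested. Clec4e, a receptor for damaged cells, had 10 UMIs in 2 Cell Suspension samples and 0 in Liver, and was not called with the block (adjusted p = 0.159).

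Inhibitors of the pathway were among the 13. Nfkbia, which holds NF-kB in the cytoplasm, was at 33.3 to 309 CPM in Cell Suspension (median 145) and at 0 to 56.9 CPM in Liver (median 35.1), higher in all 8 mice, with a log2 fold change of 2.11 ± 0.30 (SE, edgeR's quasi-likelihood test, adjusted p = 5.91e-06). Tnfaip3, a ubiquitin-editing enzyme that ends NF-kB signaling, was at 0 to 136 CPM and at 5.0 to 37.3 CPM, and rose by 2.96 on the log2 scale. Nfkbiz, a nuclear regulator of NF-kB targets, rose by 2.04. The 13 calls of the list became 5 with the pool as a covariate, 3 of 26 tested after thinning to the smallest sample, 7 without the Cell Suspension sample of mouse 1 and 7 in spliced and ambiguous counts alone. The calls over all genes moved as well, and are given elsewhere in the text for all but the last of these settings.

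Rgs1, which damps signaling of chemokine receptors and stood outside the list, rose as well. It was at 106 to 978 CPM in Cell Suspension (median 526.1) and at 17.6 to 65.9 CPM in Liver (median 40.5), without overlap. The log2 fold change was 3.78 ± 0.29 (SE, edgeR's quasi-likelihood test, adjusted p = 4.17e-13). Hepatocyte RNA would give 0.073 CPM of it. Srgn, the core protein of a proteoglycan in secretory granules, was chosen after its values were seen. It was at 0 to 386 CPM in Cell Suspension and at 17.1 to 37.3 CPM in Liver, higher in 7 of 8 mice, and rose by 3.02 on the log2 scale. The gene of Rgs1 lies at chr1:144242296-144249242 on the minus strand, that of Il1b at chr2:129364570-129371139 on the minus strand and that of Jun at chr4:95049034-95052222 on the minus strand (GRCm38).

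Within each of the 4 pools that held both sample types, the mean of Cell Suspension was above that of Liver for Rgs1, Il1b, Cxcl2, Fos, Jun, Dusp1 and Nfkbia. In the pool of mouse 6, its Cell Suspension sample was at 33.3 CPM for Cxcl2, Dusp1 and Nfkbia, which is 1 UMI each. Liver was there at 28.4 CPM for Dusp1 and 23.4 CPM for Nfkbia, so for these genes that pool carries little weight. For Tnfaip3 and Srgn this held in 3 pools and for Cd83 in 2. Clec4f was lower in Cell Suspension in 3 of the 4 pools, at 1294 against 1864, 1028 against 1912 and 899.6 against 1722 CPM, and higher in 1, at 1654 against 1398 CPM. With the pool as a covariate the median of the Kupffer marker list was -0.34, that of all genes was -0.27, and none of the 17 markers was called (edgeR's quasi-likelihood test). In the pool with the Cell Suspension sample of mouse 4, Rgs1 was at 106 CPM in Cell Suspension and 17.6 CPM in Liver. In the pool with that of mouse 6 it was at 366 and 53.9 CPM. With these 4 pools alone and the pool as a covariate, 63 genes were higher and 29 lower.

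The promoters of the genes on the NF-kB list that were called higher are shown because 5 of them hold the NF-kB consensus within 250 bases before the start. Of the 13 genes, 10 had a promoter in the RefSeq table (build GRCm38.p6). The 5 are 50% of these genes, and the consensus was found in 8.23% of all 27025 genes with a promoter and in 10.4% of the genes tested. The list was written from NF-kB genes, so a high share may come from that choice alone. The list genes that were not called were not compared. Cxcl10 kept its call in 19 of 39 alternatives and Cxcl1 in 28 of 36. Each is written from 5′ to 3′ on the strand of its gene, with the matches in capitals, which overlap on both strands in Cxcl2 and Cxcl1. That of Cxcl2 lies at chr5:90903649-90903898 on the plus strand, that of Cxcl1 at chr5:90890995-90891244 on the plus strand and that of Cxcl10, a chemokine for T cells, at chr5:92348890-92349139 on the minus strand. That of Tnfaip3 lies at chr10:19015411-19015660 and that of Nfkbia at chr12:55492648-55492897, both on the minus strand.
Cxcl2: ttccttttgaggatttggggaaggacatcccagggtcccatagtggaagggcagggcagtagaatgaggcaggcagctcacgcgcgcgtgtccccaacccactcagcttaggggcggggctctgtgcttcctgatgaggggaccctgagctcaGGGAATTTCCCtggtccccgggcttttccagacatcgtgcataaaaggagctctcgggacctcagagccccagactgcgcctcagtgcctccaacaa
Cxcl1: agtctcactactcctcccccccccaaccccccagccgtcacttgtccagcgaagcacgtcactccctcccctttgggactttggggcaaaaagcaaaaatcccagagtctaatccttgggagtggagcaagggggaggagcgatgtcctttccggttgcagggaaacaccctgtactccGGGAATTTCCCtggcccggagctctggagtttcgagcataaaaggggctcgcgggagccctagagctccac
Cxcl10: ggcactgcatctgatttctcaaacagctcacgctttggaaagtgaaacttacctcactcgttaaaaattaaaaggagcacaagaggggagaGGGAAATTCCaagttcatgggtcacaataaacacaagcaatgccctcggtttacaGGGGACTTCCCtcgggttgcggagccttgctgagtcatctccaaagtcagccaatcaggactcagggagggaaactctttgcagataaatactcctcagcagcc
Tnfaip3: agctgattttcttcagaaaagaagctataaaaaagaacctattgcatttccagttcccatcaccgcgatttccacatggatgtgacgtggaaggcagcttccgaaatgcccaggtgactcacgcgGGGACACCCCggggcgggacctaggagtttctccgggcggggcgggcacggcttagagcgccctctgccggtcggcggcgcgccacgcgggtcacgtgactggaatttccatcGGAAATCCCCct
Nfkbia: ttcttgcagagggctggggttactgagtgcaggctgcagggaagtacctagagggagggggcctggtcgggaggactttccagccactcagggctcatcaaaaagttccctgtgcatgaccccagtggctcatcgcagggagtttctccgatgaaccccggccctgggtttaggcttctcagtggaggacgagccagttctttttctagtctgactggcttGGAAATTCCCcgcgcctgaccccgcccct
Cxcl2 and Cxcl1 hold the same run of capitals, which begins 97 and 71 bases before the start. The first of the matches begins 159 bases before it in Cxcl10, 125 in Tnfaip3 and 29 in Nfkbia.

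Among the 109 genes higher in Cell Suspension that had a promoter, 15.6% held the NF-kB consensus, 12.8% the AP-1 site TGANTCA, 6.42% the cyclic AMP response element TGACGTCA and 4.59% a CArG box, the site of serum response factor. In the genes tested these shares were 10.4%, 5.95%, 2.9% and 1.46%, and in all promoter genes 8.23%, 7.82%, 1.77% and 1.62%. Both strands were searched. Of the early response genes that rose, 2 of 23 held the NF-kB consensus. A match in this window says nothing on whether a factor was bound there, and no test was made on these shares.

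Fewer genes of the other lists were called. Over all genes tested 1.08% were higher and 0.224% lower. Of the macrophage transcription factors 3 of 19 tested rose, with a list median of -0.11. They were Cebpb, which drives inflammatory genes in macrophages (2.84 on the log2 scale), Id3, needed for Kupffer cell development (1.45), and Bhlhe40 (1.49). Hepatocyte RNA would bring 133 CPM of Bhlhe40 into Kupffer nuclei of Cell Suspension, where 89.4 CPM was measured. After subtraction of the hepatocyte profile only Cebpb of the 3 was still called, with adjusted p of 0.404 for Bhlhe40 and 0.0574 for Id3 (edgeR's quasi-likelihood test). The factors that set macrophage identity, such as Spi1 and Nr1h3, were not called. Of the 15 glucocorticoid targets tested 3 rose: Dusp1, which is on the early response list too, and the metallothioneins Mt1 (2.96) and Mt2 (2.42), which bind zinc and copper. The median was 0.48. Hepatocyte RNA would bring 61.9 of the 127 CPM of Mt1 and 8.65 of the 23.5 CPM of Mt2, and after its subtraction Mt2 was not called (edgeR's quasi-likelihood test, adjusted p = 0.226). Mt1 was at the threshold after that subtraction (adjusted p = 0.04995) and was not called after subtraction of the low-UMI profile (adjusted p = 0.320), with DESeq2, with the pool as a covariate or after thinning.

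Of 17 heat shock chaperones only Hspa8, the constitutive chaperone of the cytosol, was called (1.18). Hepatocyte RNA would bring 79.5 of its 163 CPM, and after subtraction it was not called (0.58, edgeR's quasi-likelihood test, adjusted p = 0.561). Vegfa, the growth factor of vessels, was the one call among 20 hypoxia and glycolysis genes (1.26, median 0.44). Hepatocyte RNA would bring 91.5 CPM of Vegfa in Cell Suspension, where 77.8 CPM was measured, and 57.4 CPM in Liver, where 28.7 CPM was measured. After its subtraction Vegfa was still called (3.66, edgeR's quasi-likelihood test, adjusted p = 0.0240). Counts that would turn negative were dropped there, so this size is no estimate of the rise. Vegfa kept its call in 11 of 39 alternatives. Thbs1, a matrix protein, was the one call among 28 adhesion genes (median -0.09). The 34 lysosome genes tested had a median of -0.08, and 1 of them was called higher, but none after either subtraction. Over all genes tested 1.08% were called higher. Thbs1 was at 0 in 7 of the 8 Cell Suspension samples and was not called with the mouse as a block (edgeR's quasi-likelihood test, adjusted p = 0.339).

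None of 34 interferon response genes, 29 scavenger, Fc and clearance receptors, 22 iron and heme genes and 25 genes of the liver X receptor and lipid list was called by edgeR's quasi-likelihood test. Their medians were -0.11, -0.01, -0.05 and 0.01. At an unadjusted p under 0.05, 5, 0, 4 and 1 of them were higher and 1, 0, 2 and 1 lower. Over all 13819 genes tested, 574 were higher and 1101 lower at that threshold. The median of the interferon list turned to 0.06 with RLE size factors, and DESeq2 called 2 of its genes higher. Of the iron and heme genes, 3 were called higher with RLE, 3 with DESeq2 and 2 with the mouse as a block, and the median was 0.14 with RLE. The calls over all genes in these settings are given above.

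Of 13 mitochondrially encoded genes 5 were higher, with a median of 0.93, and 13 had an unadjusted p under 0.05. Over all 13819 genes tested 1.08% were called higher, and 574 were higher at an unadjusted p under 0.05. The largest rise was 1.64, of mt-Atp8. Without the Cell Suspension sample of mouse 1, 0 were called, and without that of mouse 4 or of mouse 6 it was 11. With the pool as a covariate 0 were called. Mitochondrial genes have copies in the nuclear genome, so that the reads are uncertain.

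**Figure D3:**
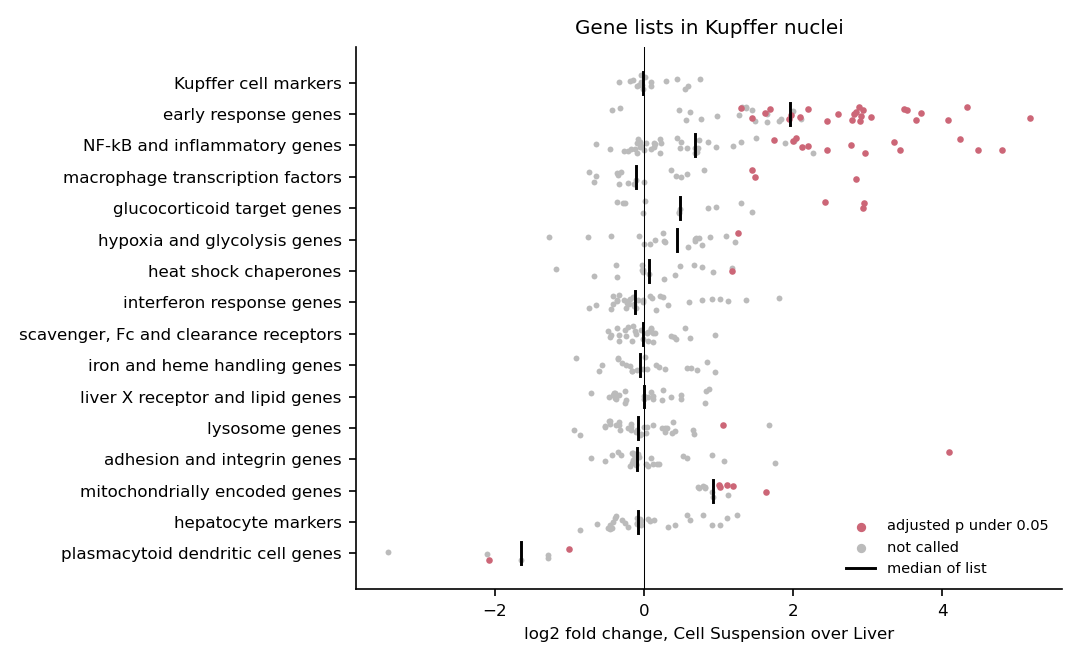
Log2 fold change of Cell Suspension over Liver in Kupffer nuclei for the tested genes of 16 lists, 1 point per gene, red where called at an adjusted p under 0.05. Black bars are list medians, which lie at 1.96 for early response genes and 0.68 for NF-kB and inflammatory genes, and at -0.01 for Kupffer markers.

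None of 12 monocyte, 15 endothelial, 7 stellate, 6 lymphocyte and 3 biliary markers tested was called (edgeR's quasi-likelihood test). At an unadjusted p under 0.05, 2, 0, 4, 0 and 0 of them were higher and 2, 0, 0, 0 and 0 lower. Over all 13819 genes tested, 574 were higher and 1101 lower at that threshold. DESeq2 and RLE each called 1 stellate marker higher, with the calls over all genes given above. The 7 stellate markers had a median of 0.97, and their sum was 215 to 758 CPM in Cell Suspension and 200 to 677 CPM in Liver. Monocyte markers summed to 386 to 906 CPM and 438 to 630 CPM, without TMM scaling.

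The rises were also looked at as the share of Kupffer nuclei with a UMI. Apart from Clec4f and Alb, the genes compared had already been called higher in the sums of the same UMIs. Their p-values are therefore no independent support, and the shares only describe how the rises spread over nuclei. Nuclei were thinned to 500 UMIs, which left out 2 Cell Suspension nuclei, and 9 genes were compared. Rgs1 was seen in 19.5% ± 12.9 of Kupffer nuclei in Cell Suspension and in 1.77% ± 1.76 in Liver (SD, n = 8, exact permutation test, adjusted p = 0.000699), and without thinning in 44.7% and 8.86%. In hepatocyte nuclei of Cell Suspension it was seen in 0.0499%. Il1b was seen in 6.53% ± 4.61 and 1.83% ± 1.52 of Kupffer nuclei (n = 8, exact permutation test, adjusted p = 0.0196), against 0.0109% and 0.0223% of hepatocyte nuclei. Cxcl2, Cd83 and Srgn differed too, with adjusted p of 0.0105, 0.000466 and 0.00392 by exact permutation.

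Fos was seen in 11.96% ± 6.14 of Kupffer nuclei of Cell Suspension and 0.763% ± 0.963 of those of Liver, and in 14.8% and 0.318% of hepatocyte nuclei. Jun was seen in 13.96% ± 5.92 and 1.57% ± 1.53 of Kupffer nuclei, and in 56.0% and 2.87% of hepatocyte nuclei. Both had an adjusted p of 0.000466 by exact permutation (n = 8), and in Cell Suspension both shares lay below those in hepatocyte nuclei. These shares alone do not separate background from own RNA, and the values of Fos and Jun after either subtraction are given above. Clec4f was seen in 49.3% ± 7.50 and 48.9% ± 9.27 of Kupffer nuclei (exact permutation test, adjusted p = 0.922), and Alb, a transcript of hepatocytes, in 38.8% and 41.9% (adjusted p = 0.620). Before thinning, the median depth was 1908 UMIs in Kupffer and 3644 in hepatocyte nuclei of Cell Suspension, and 2740 and 7696 in those of Liver.

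**Figure D4:**
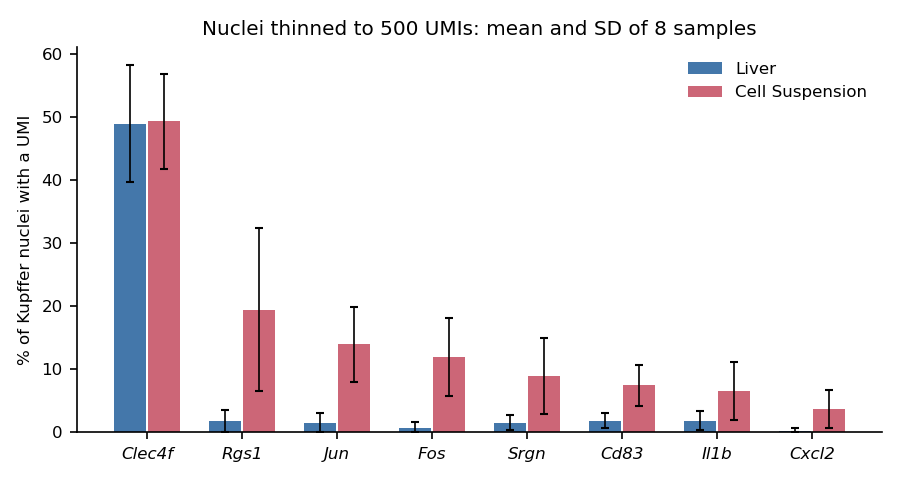
Share of Kupffer nuclei with at least 1 UMI of each gene after thinning to 500 UMIs per nucleus, in percent. Bars are means and error bars the SD of 8 samples, Liver in blue and Cell Suspension in red, and Clec4f is level between the groups while the other 7 genes are higher in Cell Suspension.

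The change in Kupffer nuclei was set against that in hepatocyte and in endothelial nuclei of the same samples. In hepatocyte nuclei 7.41% of genes were called higher and 12.9% lower, 20.3% together, and in endothelial nuclei 1.95% and 1.89%, 3.84% together. Of the 149 genes higher in Kupffer nuclei, 103 were higher in hepatocyte nuclei and 100 in endothelial nuclei too. The difference in change was called for 44 genes (0.177%) that rose more or fell less in Kupffer than in hepatocyte nuclei and for 227 (0.913%) with the opposite sign, 1.09% together. Against endothelial nuclei these were 20 (0.109%) and 15 (0.0817%), 0.191% together.

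Of the early response list, 10 genes had a called difference to hepatocyte nuclei below 0 and 1, Dusp1, above. The others had no called difference. Atf3, a stress-induced transcription factor, rose by 3.48 on the log2 scale in Kupffer nuclei and by more in hepatocyte nuclei, with a difference of -4.11 between them (edgeR's quasi-likelihood test, adjusted p = 2.68e-22). For Fos the difference was -2.43 and for Jun -1.77 (adjusted p = 1.08e-05 and 1.26e-05). Against endothelial nuclei the difference was called for Jun (-1.10) and Jund (-1.51), both lower in Kupffer nuclei (adjusted p = 0.0248 and 0.00206).

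On the NF-kB list, 3 genes had a called difference to hepatocyte nuclei, all above 0. They were Cxcl2 (2.59, edgeR's quasi-likelihood test, adjusted p = 0.0416), Tnfaip3 (2.05, adjusted p = 0.00835) and Nfkbia (1.15, adjusted p = 0.0232). For Rgs1 and Il1b, which hepatocyte nuclei hardly hold, the difference was not called (adjusted p = 0.0505 and 0.226). The list's median log2 fold change was 0.68 in Kupffer, 0.42 in hepatocyte and 0.10 in endothelial nuclei. Against endothelial nuclei Nfkbiz rose less (-1.11, adjusted p = 0.0248) and Srgn more (2.55, adjusted p = 6.06e-13).

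**Figure D5:**
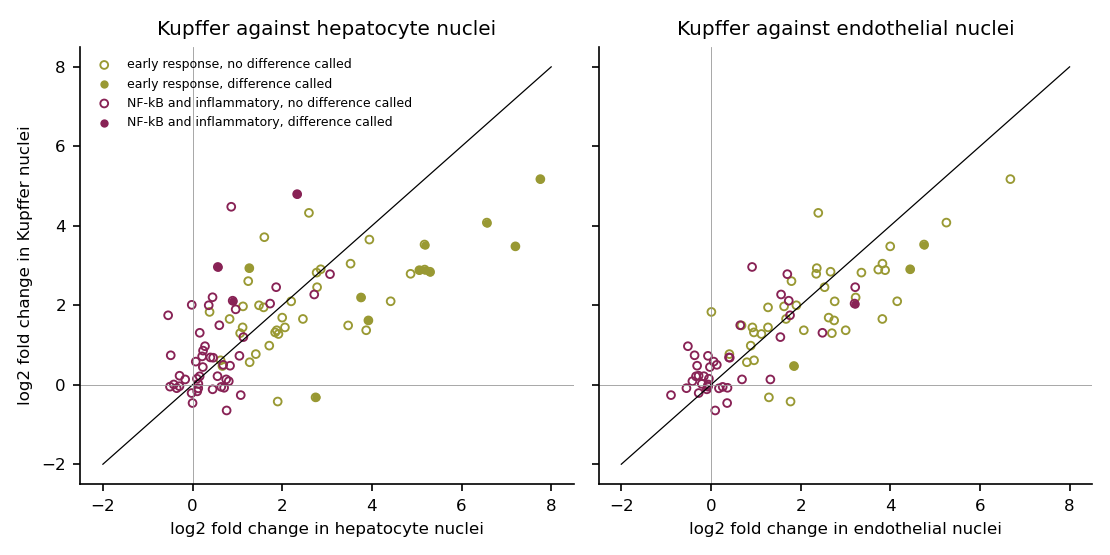
Log2 fold change of Cell Suspension over Liver in Kupffer nuclei (vertical axis) against that in hepatocyte nuclei (left) and endothelial nuclei (right), for genes of the early response list (green) and the NF-kB and inflammatory list (purple). Filled points have a called difference in change, the line marks equal change, and 10 early response genes lie below it on the left while Cxcl2, Tnfaip3, Nfkbia and Dusp1 lie above.

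Of the 31 genes that fell, 2 are known from plasmacytoid dendritic cells. Tcf4, a transcription factor of plasmacytoid dendritic cells, was at 233 to 451 CPM in Cell Suspension (median 316) and at 465 to 1341 CPM in Liver (median 600), without overlap. It fell by 1.01 on the log2 scale (SE 0.21, edgeR's quasi-likelihood test, adjusted p = 0.00406). Tcf4 is not confined to plasmacytoid cells. Without TMM scaling it was at 1239 CPM in endothelial nuclei of Cell Suspension and at 1518 CPM in those of Liver. In hepatocyte nuclei it was at 233 and 261 CPM. Tcf4 kept its call in 36 of 42 alternatives. It lost it, among others, with the pool as a covariate, in spliced and ambiguous counts alone and with Cell Suspension of pools holding no Liver. Siglech, a lectin of these cells chosen after its values were seen, was at 0 to 47.6 CPM and at 27.1 to 174 CPM, and fell by 2.08. Its call was kept in 30 of 40 alternatives. It was lost without mouse 2, 5, 6, 7 or 8, and at high hashtag margin, among others. A list of 10 plasmacytoid dendritic cell genes, also written after the values were seen, summed to 322 to 815 CPM in Cell Suspension and 665 to 2728 CPM in Liver, without TMM scaling. Of its 7 tested genes 2 were called lower, 0.224% of all genes being called lower. With the mouse as a block 4 were called lower, without mouse 2 it was 1, and with Cell Suspension of pools holding no Liver 0.

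At least 3 genes of the list, Siglech among them, were found in 26 of 919 Liver nuclei (2.83%) in all 8 samples and in 3 of 342 Cell Suspension nuclei (0.877%). The Siglech level of these nuclei was fixed by this choice. Clec4f, which the choice did not use, was at 96.6 CPM in those of Liver and at 1688 CPM in the other Liver nuclei, and 2 of the 26 held a UMI of it, which goes against their annotation as Kupffer cells. Without these nuclei 156 genes were higher and 20 lower. Tcf4 was then not called, but it is on the list that chose the nuclei, so this is no test of where its fall lies. The calls on the early response and NF-kB lists stayed at 25 and 13.

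Kcnj16, a subunit of a potassium channel, and P2ry6, a receptor for the nucleotide UDP, were chosen after their values were seen. Kcnj16 was at 66.6 to 375 CPM in Cell Suspension (median 215) and at 291 to 601 CPM in Liver (median 482). It fell by 0.91 on the log2 scale (edgeR's quasi-likelihood test, adjusted p = 0.0181) and was lower in all 8 mice. P2ry6 was at 25.8 to 118 CPM and at 99.3 to 205 CPM, fell by 1.04 and was also lower in all 8 mice. Kcnj16 kept its call in 32 and P2ry6 in 31 of 42 alternatives, RLE and DESeq2 among them. Both lost it after thinning to the smallest sample, at high hashtag margin and with Cell Suspension of pools holding no Liver.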

How the data were processed

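Single-nucleus RNA libraries of 8 Liver and 8 Cell Suspension samples were analysed. The Kupffer nuclei, gene lists and tests were chosen with earlier results of these data known. Reads, demultiplexed with bcl2fastq 2.19.0, were mapped by the authors to GRCm38 with Salmon Alevin and counted with alevin-fry. Raw UMI counts per barcode and gene, in spliced, unspliced and ambiguous form, were deposited. The authors' table of nuclei gives the hashtag, cell type, cluster and a demultiplexing margin, which is a fraction. They removed doublets with scDblFinder, and no nucleus was removed here. One hashtag, CD2, was read as Cell Suspension of mouse 2.

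The 3 forms were added per sample over Kupffer, hepatocyte or endothelial nuclei. The quasi-likelihood test of edgeR 4.0.16 (R 4.3.3, TMM scaling, sample type as the only term) was run on genes with at least 10 counts, and calls were made at a Benjamini-Hochberg adjusted p under 0.05. Differences in change between cell types were tested as an interaction with the sample as a block. Values per sample were compared by two-sided exact permutation tests, whose smallest p is 0.0001554 unpaired and 0.0078125 paired. UMI sums of 21464 to 837797 per sample limit the precision, and genes under about 50 CPM rest on few UMIs in Cell Suspension. Intervals and SDs cover the spread between mice of 1 experiment. Hepatocyte RNA was subtracted as the sample's hepatocyte profile, or the profile of barcodes with 10 to 100 UMIs of the pool, scaled to the hepatocyte markers. DESeq2 1.42.0 was an alternative. Python 3.11.15, pandas 2.3.3, numpy 2.4.6, scipy 1.17.1 and matplotlib 3.10.9 were used.

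Named genes are Clec4f, Cd5l, Csf1r, up to 5 called genes of each list with the largest change and others needed to describe it, and up to 10 rises and 10 falls with at least 50 CPM, no overlap between groups and at least 2 times the level of hepatocyte nuclei. Only Rgs1, Cxcl2 and Tcf4 met the last part.

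Liver and Cell Suspension of one number come from the same mouse, which is where the pairing comes from. Over 3930 genes, the correlation of deviations from the group means was -0.214 to 0.423 within a mouse (median 0.0344) and had a median of -0.0111 between mice. The single-gene values of some list members are not reported here.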

Additional observations from a re-analysis of the deposited data

Results flagged for a closer look

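A single sample lay far from the other 7 of its group in 12 of 66 groups of values. The rule is set to flag about 1 in 20 groups of normal values. That rate does not hold for sparse counts, since a count beside 7 samples at 0 is always flagged. The 12 are thus not compared with chance. The Cell Suspension sample of mouse 4 had 2.268% hepatocyte RNA in its Kupffer nuclei, with the next sample at 1.104%. The Cell Suspension sample of mouse 6, of 20 nuclei, was at 0 on the log2(CPM + 1) scale for Cebpb, Id3 and mt-Atp8 and at 5.101 for Dusp1. The Liver sample of mouse 6 was at 0 for Id3 and Vegfa. Among Liver samples, mouse 7 stood at 2.677 for Dusp5, mouse 4 at 3.057 for Nr4a3 and at 8.952 for mt-Nd1, and mouse 3 at 1.194 for Thbs1. Thbs1 was at 6.124 in the Cell Suspension sample of mouse 1 and at 0 in the other 7, so its call rests on that sample.

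Among the genes named by the rule, 7 changed differently in Kupffer and in hepatocyte nuclei by the interaction test (edgeR's quasi-likelihood test). The change in Kupffer minus that in hepatocyte nuclei was -2.658 for Fosb, -2.43 for Fos, -1.668 for Hspa8 and -1.563 for Mt1 on the log2 scale, all smaller rises in Kupffer nuclei. It was 2.591 for Cxcl2 and 1.469 for Dusp1, both larger rises. For Tcf4, which fell in Kupffer nuclei, it was -1.057. The adjusted p was 0.00886, 1.08e-05, 1.08e-05, 0.0211, 0.0416, 0.000262 and 0.00797 in this order of genes. For Fos and Fosb, hepatocyte RNA in Kupffer nuclei may also carry these transcripts, and its part in the difference was not tested.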

How the results depend on the processing

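Of 49 called genes named by the rule or lists, 12 kept their call in every alternative in which they were tested: Btg2, Cxcl2, Dusp1, Fos, Fosb, Il1b, Jun, Junb, Jund, Nfkbia, Rgs1 and Srgn. The number of genes called, 180, became 86 with edgeR's filterByExpr, 300 with no filter beyond 1 count, 99 with the pool as a covariate, 93 in unspliced counts, 51 after thinning to the smallest sample, 114 in nuclei of high hashtag margin and 92 in pools with both sample types. With the mouse as a replicate block it was 193, with 54 lower instead of 31. The block ended the calls of Bhlhe40, Ccl3, Clec4e, Cxcl1, Cxcl10, Nr4a3, Thbs1 and Vegfa, and left 21 of 25 calls on the early response list and 9 of 13 on the NF-kB list. Leaving out each mouse gave 77 to 219 and each library 103 to 210. The share of higher genes, 82.8%, was 94.9% with RLE, 94.8% with DESeq2, 95.3% with filterByExpr, 72.0% with the block and without a filter, 69.7% with the pool, 68.5% in pools with both, 66.7% at high margin and 55.4% in spliced and ambiguous counts. The 271 differences to hepatocyte nuclei became 143 with RLE, 84 with no sample block, and 161 to 273 when each mouse was left out. The 35 to endothelial nuclei became 4 with filterByExpr and 22 to 57 when each mouse was left out. The Kupffer marker calls were 0 with RLE, the block, unspliced counts, the hepatocyte profile subtracted and each mouse or library left out, and 1 higher both after thinning to the smallest sample and with Cell Suspension of pools holding no Liver. The share difference of -2.33 points turned to 2.10 among nuclei that are not hepatocytes and was -2.83 to -1.86 when each mouse was left out. The hepatocyte RNA difference turned to -0.0151 with 4 abundant transcripts, and leaving out each mouse gave -0.0777 to 0.187. The UMI difference was -822 to -348 when each mouse was left out.

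Clec4f turned to 0.034 with RLE, 0.037 with DESeq2, 0.031 with filterByExpr, 0.0018 after thinning and 0.17 with Cell Suspension of pools holding no Liver. Csf1r turned to 0.15 with RLE, 0.15 with DESeq2, 0.14 with filterByExpr, 0.055 in spliced and ambiguous counts, 0.0029 with 20 nuclei, 0.14 after thinning, 0.10 with pools holding no Liver, and ranged from -0.20 to 0.041 when a mouse or a library was left out. Cd5l turned to -0.34 with the pool, -0.026 in unspliced counts, -0.039 with the hepatocyte profile subtracted, -0.070 at high margin and -0.37 in pools with both, and ranged from -0.041 to 0.23 when a library was left out. Thbs1 turned to -0.52 with the pool and Olfr164 to 0.21 without the plasmacytoid nuclei. None of these was called. The cause was not tested. Pools and groups are partly confounded, since the Cell Suspension of mice 1 to 3 shared no pool with Liver, and few nuclei per sample limit low genes.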

Other observations

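The Kupffer-annotated nuclei assigned to cultured hepatocyte samples numbered 77 of 18394, with 3 to 22 per sample. The paper reports no Kupffer cells in these samples. It names misassigned cells as 1 possible source of small clusters there that resemble uncultured cells. The assigned tag held a median of 30.5% of the hashtag UMIs of the 77 nuclei, and whether they were misassigned was not tested. Over all 77, Clec4f was at 689 CPM, Cd5l at 412 CPM, Csf1r at 213 CPM, Rgs1 at 313 CPM and Il1b at 77.0 CPM. Of these nuclei 57.1% held a UMI of Clec4f, Cd5l or Csf1r. In the 342 Kupffer nuclei of Cell Suspension, the tag with the next highest count belonged to a cultured sample in 161, to another Cell Suspension sample in 97 and to a Liver sample in 84.

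Ribosomal protein genes, a group chosen after the values were seen, lay above 0 in Kupffer nuclei of Cell Suspension for 79 of 80 genes tested, with a median log2 fold change of 0.71 against -0.17 over all genes. Of these 80, 5 were called higher, Rpl26, Rpl4, Rpl8, Rps15 and Rps28, where 1.08% of all genes tested were. Their transcripts have many processed copies in the genome, so the reads are uncertain. Plek, a substrate of protein kinase C in blood cells, was also chosen after its values were seen and rose from 87.3 to 275 CPM (log2 fold change 1.68, edgeR's quasi-likelihood test, adjusted p = 0.000353).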
